A study of Kluyveromyces lactis with 6 samples.

Results

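The 5 genes described here code for the cell-surface and secreted proteins with which yeast cells of opposite mating type recognise each other. They were taken by gene identifier from the 5076 genes listed for *Kluyveromyces lactis*, with earlier results of these data known. They are the pheromone receptor genes *STE2* (KLLA0F25102g) and *STE3* (KLLA0A06534g), the agglutinin genes *AGA2* (KLLA0E10891g) and *SAG1* (KLLA0E09681g), and *BAR1* (KLLA0D15917g), which codes for a secreted protease. Their RNA was measured in 6 RNA-seq libraries of 3 strains. The wild type (WT) was strain LRY2835, with the genotype *MATa SIR2*. The sir2Δ strains were 2 isolates of *MATa sir2_delta*, LRY2849 (isolate 1) and LRY2850 (isolate 2), and all 3 strains also carry *hmr_delta* and *hml_delta*, that is, they lack the silent mating-type cassettes. Cells grew at 30 °C in rich glucose medium to early log phase, and no pheromone is named among the treatments. Each strain gave 2 libraries, which the design text calls technical replicates, so WT is a single strain, and no second WT strain stands behind the differences from it.

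Budding yeasts mate when haploid cells exchange peptide pheromones. In *Saccharomyces cerevisiae*, a cells carry Ste2, the receptor for alpha-factor, display Aga2, the binding subunit of the a-agglutinin, and secrete Bar1, an aspartyl protease that degrades alpha-factor. Alpha cells carry Ste3, the receptor for a-factor, and display the alpha-agglutinin Sag1. Both receptors act through the same heterotrimeric G protein and kinase cascade. Sir2 is an NAD+-dependent histone deacetylase that keeps the silent cassettes off, and those cassettes are deleted here. The words a-type (*STE2*, *AGA2*, *BAR1*) and alpha-type (*STE3*, *SAG1*) below follow *S. cerevisiae*, and whether each gene has the same cell type in *K. lactis* was not tested.

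The libraries matched their labels as far as the listed genes show. Transcript levels are given in FPKM, a read abundance corrected for gene length and for the size of the library. The WT libraries held *SIR2* (KLLA0F14663g) at 66.9 and 64.9 FPKM, and the 4 sir2Δ libraries listed it between 0.0503 and 0.108 FPKM. The silent-cassette genes *HMLALPHA1* and *HMLALPHA2*, which code for alpha regulators, were listed at 0 in all 6 libraries. No gene of the *MATa* locus carries a name in the reference table, so its expression was not analysed here. The cultures were measured in bulk, so more RNA in every cell and RNA in more of the cells cannot be told apart.

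In WT cells the 2 alpha-type genes and *STE2* were expressed at 13.4 to 33.4 FPKM, below the median gene, and the 2 other a-type genes were near the bottom of the transcriptome. *STE3* was highest, at 33.4 and 31.9 FPKM, which placed it 3463rd and 3566th of 5076 genes. *STE2* was at 14.1 FPKM in both libraries (14.13 and 14.10), and *SAG1* at 14.1 and 13.4 FPKM. The *STE2* and *SAG1* levels do not differ beyond the spread of the WT libraries, since 1 *SAG1* value lies between the 2 *STE2* values. *AGA2* was at 2.2 and 3.78 FPKM, ranks 4951 and 4910. *BAR1* was lowest, at 0.275 and 0.599 FPKM, ranks 5014 and 5005. The deleted *SIR2* gene was listed at 0.0503 to 0.108 FPKM, but that is 1 gene in the sir2Δ libraries and sets no floor for WT. With the depth unknown, whether *BAR1* was expressed in WT at all could not be told. Thus in cells labelled *MATa* the a-type genes *AGA2* and *BAR1* were lower than both alpha-type genes in both WT libraries.

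**Figure D1:**
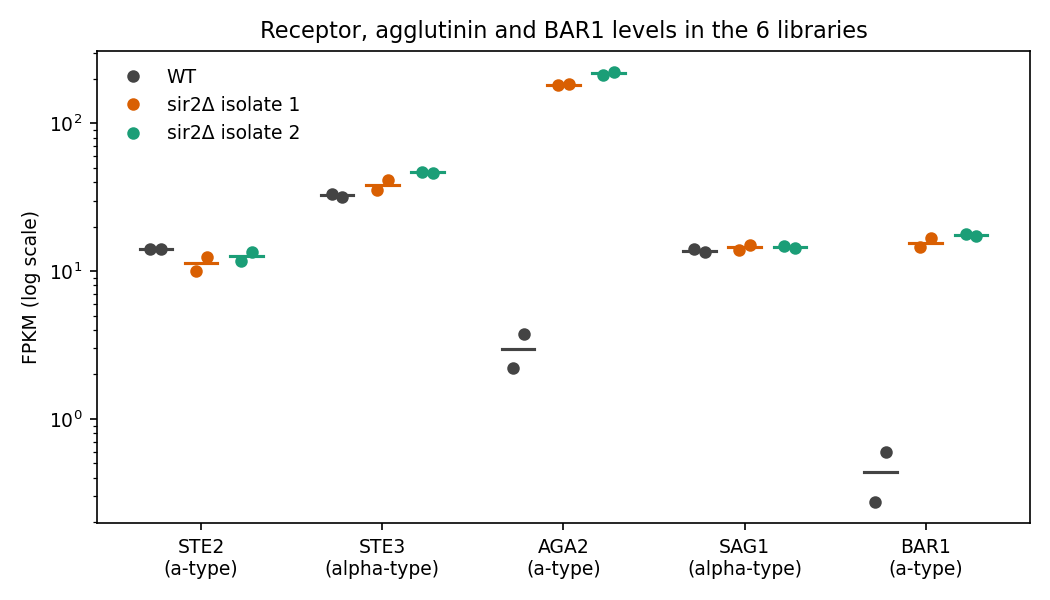
FPKM of the 5 genes in each library on a log axis, with 2 technical libraries per strain as points and their mean as a bar. *AGA2* goes from 2.2 and 3.78 FPKM in WT to 182 or more in every sir2Δ library and *BAR1* from below 1 to 14.6 or more. *STE2* and *SAG1* lie between 10.1 and 15.1 FPKM in all libraries, and *STE3* between 31.9 and 47.0.

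Without *SIR2*, *AGA2* and *BAR1* rose strongly, and the receptor genes and *SAG1* did not pass the test. Differences were tested in limma on log2(FPKM + 1), with 1 WT strain mean against 2 isolate means and p-values adjusted over the 5021 genes that reached a mean of 1 FPKM over the strains. The threshold was an adjusted p of 0.05. So 2 of 5 genes were higher and 0 lower, where 20.2% of all tested genes were higher and 19.9% were lower. Of the 2, *BAR1* entered the test only through its sir2Δ values, and such entry favours genes that are high in sir2Δ. The 3 genes that did not pass have intervals that still include modest changes, so they are not shown to be unaffected.

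*AGA2*, the agglutinin subunit, was at 182 and 185 FPKM in isolate 1 and at 214 and 222 FPKM in isolate 2. Every sir2Δ library lay far above both WT libraries, and the lowest sir2Δ value was 48.1 times the highest WT value. The log2 change was 5.68 (SE 0.17, 95% interval 5.29 to 6.07, limma adjusted p = 5.1e-07), and it was the 8th largest rise among the tested genes. The fit used strain means, so this SE does not take up the spread between the 2 WT libraries, at 1.68 and 2.26 in log2(FPKM + 1). The change was 5.39 without WT replicate 1 and 5.97 without WT replicate 2. Its rank in the transcriptome went to between 934 and 1065 of 5076, above 79.0% or more of all genes in each sir2Δ library. *AGA2* is short, with a coding length of 273 nt in the RefSeq table, and levels are compared between genes here only per length, as FPKM.

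*BAR1*, the alpha-factor protease gene, was at 14.6 and 16.6 FPKM in isolate 1 and at 17.7 and 17.4 FPKM in isolate 2. Again the groups did not overlap, and the lowest sir2Δ value was 24.4 times the highest WT value. The log2 change was 3.62 (SE 0.28, 95% interval 2.98 to 4.26, limma adjusted p = 3.9e-05), the 57th largest rise. *BAR1* nevertheless stayed a low-abundance transcript, at ranks 4264 to 4598 of 5076. Because its WT level is below 1 FPKM, *BAR1* entered the test only through its sir2Δ values. For the same reason the size depends on the pseudocount, and the change was 5.02 with a pseudocount of 0.1.

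Neither receptor gene passed. *STE3* was at 35.5 and 41.1 FPKM in isolate 1 and at 47.0 and 46.4 FPKM in isolate 2, so all 4 sir2Δ libraries lay above both WT libraries. Its log2 change was 0.36 (SE 0.18, 95% interval −0.055 to 0.78) and missed the threshold (limma adjusted p = 0.144). When the 6 libraries were entered singly, which treats technical libraries as replicates, it passed (adjusted p = 0.0228). *STE2* was at 10.1 and 12.6 FPKM in isolate 1 and at 11.7 and 13.6 FPKM in isolate 2, all below the WT libraries. Its change was −0.23 (SE 0.22, 95% interval −0.74 to 0.28, adjusted p = 0.435).

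*SAG1*, the alpha-agglutinin gene, had the smallest change of the 5. It was at 13.9 and 15.1 FPKM in isolate 1 and at 14.8 and 14.2 FPKM in isolate 2, and these values overlap with WT. The change was 0.07 (SE 0.21, 95% interval −0.40 to 0.55, adjusted p = 0.809), and its direction turned under quantile normalization (−0.012). All 4 sir2Δ libraries lay above both WT libraries for 3 of the 5 genes (*AGA2*, *BAR1* and *STE3*) and below them for *STE2*. Among all tested genes 34% lay above, 41.4% below and 75.3% on either side, so such a separation is common in these libraries.

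**Figure D2:**
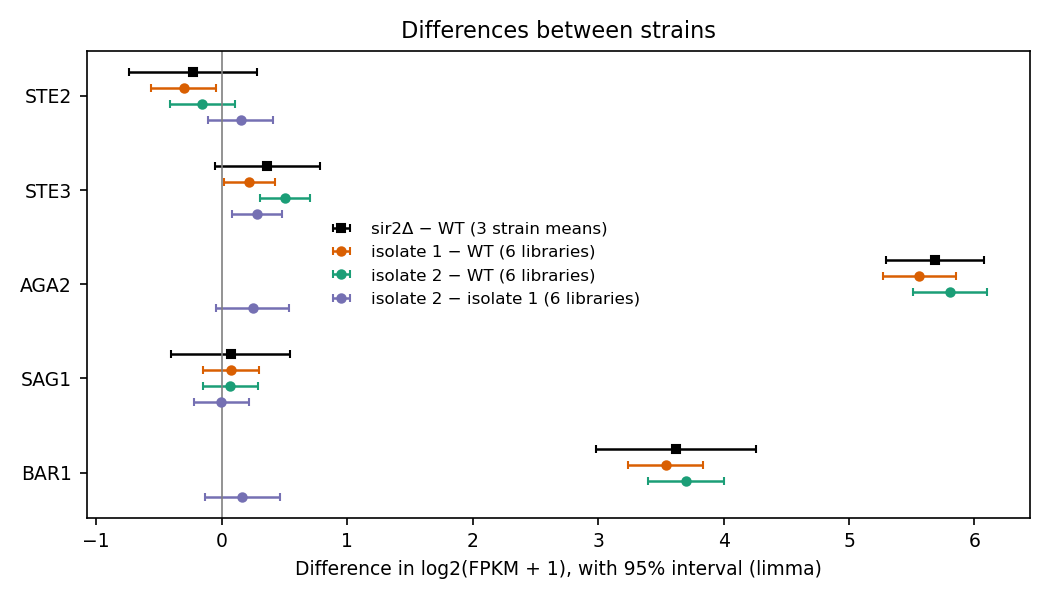
Differences between strains in log2(FPKM + 1) with 95% intervals from limma, for the 3 strain means (squares) and for the 6 libraries in 3 strain groups (circles). *AGA2* and *BAR1* stand at 5.68 and 3.62 against WT, while the intervals of *STE2*, *STE3* and *SAG1* over the strain means include 0.

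Ratios within the agglutinin and the receptor pair are given per library, with no test. The FPKM ratio of *AGA2* to *SAG1*, the 2 agglutinin genes, was 0.156 and 0.281 in WT, 13.0 and 12.2 in isolate 1, and 14.5 and 15.6 in isolate 2. The alpha-agglutinin gene was thus the more abundant in WT and the a-agglutinin subunit gene in sir2Δ. The ratio of *STE3* to *STE2*, the 2 receptor genes, was 2.36 and 2.26 in WT, 3.53 and 3.27 in isolate 1, and 4.03 and 3.42 in isolate 2. All 4 sir2Δ ratios exceeded both WT ratios for each pair, but neither receptor gene passed by itself, and how often other gene pairs separate in this way was not tested. The order of levels changed from *STE3*, *STE2*, *SAG1*, *AGA2*, *BAR1* in both WT libraries to *AGA2*, *STE3*, *BAR1*, *SAG1*, *STE2* in all 4 sir2Δ libraries. Within the latter order *BAR1* and *SAG1* do not differ beyond their spread in isolate 1 (15.6 ± 1.45 against 14.5 ± 0.86 FPKM, SD, n = 2 technical libraries). With 3 strains only 3 arrangements exist, so an exact two-sided permutation test of the difference between 2 genes' changes cannot go below p = 0.333, and no such difference could pass.

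**Figure D3:**
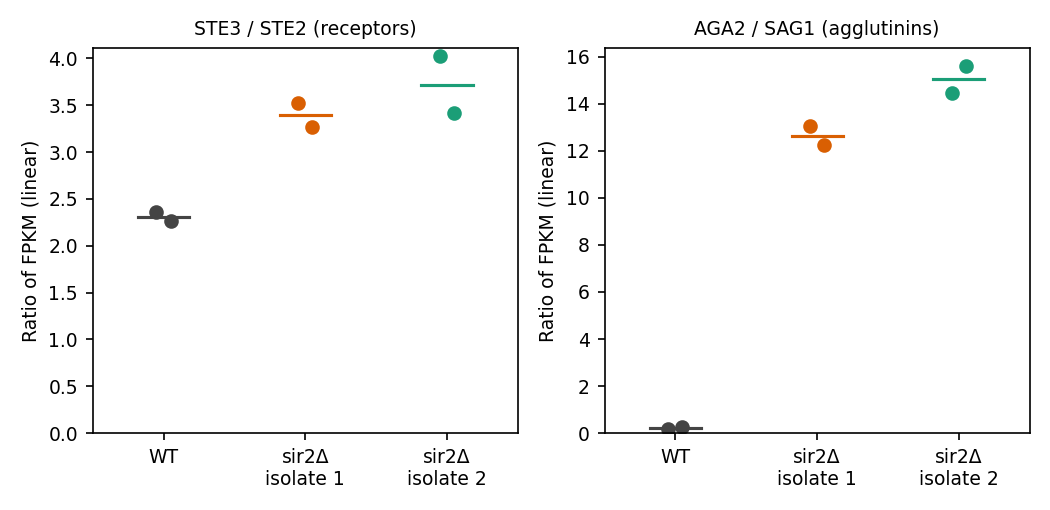
Ratio of FPKM within the receptor pair (left) and the agglutinin pair (right) in each library, on linear axes from 0, with the 2 technical libraries as points and their mean as a bar. Both ratios are higher in the 4 sir2Δ libraries than in WT, from at most 2.36 to at least 3.27 for the receptors and from at most 0.281 to at least 12.2 for the agglutinins.

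The isolates were also compared with each other. Isolate 2 differed from isolate 1 by 0.25 for *AGA2*, 0.16 for *BAR1*, 0.28 for *STE3*, 0.15 for *STE2* and −0.0029 for *SAG1* on the log2 scale. None of the 5 passed in limma on the 6 libraries in 3 strain groups, at adjusted p-values from 0.0503 for *STE3* to 0.988 for *SAG1*, where 18.7% of all tested genes passed (7.89% higher and 10.8% lower in isolate 2). Both isolate 2 libraries lay above both isolate 1 libraries for *AGA2*, *BAR1* and *STE3*, as they did for 27.5% of all tested genes. At an unadjusted threshold only *STE3* has a 95% interval that excludes 0 (0.081 to 0.48). These p-values measure the spread between technical libraries alone. The *STE3* difference passed when isolate 1 replicate 2 was left out (0.39, adjusted p = 0.0271).

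Set against the same WT libraries, each isolate repeated the large rises. *AGA2* changed by 5.56 in isolate 1 and 5.81 in isolate 2, and *BAR1* by 3.54 and 3.70. *STE3* changed by 0.22 in isolate 1 (adjusted p = 0.0506) and by 0.50 in isolate 2 (adjusted p = 0.00023), and *STE2* by −0.30 (adjusted p = 0.0399) and −0.15 (adjusted p = 0.275). Of all tested genes, 67.4% passed in isolate 1 (30.8% higher, 36.6% lower) and 71.5% in isolate 2 (32.8% higher, 38.7% lower) in this fit, so passing in it is the usual case. The *STE3* change in isolate 1 passed without isolate 1 replicate 1 (adjusted p = 0.0132) and with median ratio scaling (0.27, adjusted p = 0.0220). That *STE2* call was also lost without either WT library, without isolate 1 replicate 1 and without isolate 2 replicate 2 (adjusted p from 0.05003 to 0.311), with median ratio scaling (−0.26, 0.0757) and with no filter (0.0526).

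Other genes were taken from 7 lists matched by gene symbol, of roles in mating and of aspartyl proteases. Of these genes 58 were tested, the 5 above included. Of the 53 others, 19 were higher (35.8%) and 7 lower (13.2%), beside 20.2% and 19.9% of all tested genes. Their median log2 change was 0.12, against −0.058 over all tested genes. The members and lists were chosen with earlier results of these data known.

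Among the a-type genes, *ASG7*, which in *S. cerevisiae* codes for a regulator of pheromone signalling in a cells, rose from 5.91 and 5.28 FPKM in WT to between 10.5 and 11.98 in sir2Δ (log2 change 0.89, limma adjusted p = 0.0219). After quantile normalization its change was 0.44 and did not pass (adjusted p = 0.191). *STE6*, the a-factor exporter gene, went from 10.3 and 10.2 FPKM to between 13.4 and 15.1 and did not pass (0.46, limma adjusted p = 0.125). It passed with the 6 libraries entered singly (adjusted p = 0.0041), which treats technical libraries as replicates. Together with *STE2*, *AGA2* and *BAR1*, 3 of 5 tested a-type genes were higher and 0 lower (60% and 0%, beside 20.2% and 19.9% of all tested genes). Among the 3, *BAR1* entered the test only through its sir2Δ values, which favours a call as higher. These counts depend on the lists, since *AFB1* and *AXL1* were moved out of the a-type list after their values were seen. As first written, 5 of 7 a-type and 0 of 2 alpha-type genes were higher. Of the alpha-type genes as now listed, 1 of 3 tested rose (33.3%). This was *AFB1* (1.16, limma adjusted p = 0.0129), which in *S. cerevisiae* codes for a secreted protein of alpha cells that blocks a-factor. WT libraries held it at 8.77 and 8.01 FPKM, isolate 1 libraries at 17.8 and 14.1, and isolate 2 libraries at 23.9 and 26.5. The *AFB1* call was lost without isolate 1 replicate 1 (adjusted p = 0.0594).

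Of 18 tested genes of the shared pheromone signalling machinery, 5 were higher and 3 lower (27.8% and 16.7%, median −0.032), shares close to the 20.2% and 19.9% of all tested genes. The count was 5 and 0 with no filter, 5 and 1 with median ratio scaling, and 6 and 6 with the 6 libraries entered singly. The G protein subunit gene *STE18* (gamma) rose from 1.15 and 2.22 FPKM to between 41.2 and 47.7 (log2 change 4.15, adjusted p = 3.2e-06). *GPA1* (alpha subunit) rose from 8.40 and 8.08 to between 24.4 and 28.7 FPKM (1.59, adjusted p = 0.00051), while *STE4* (beta subunit) was at 21.4 FPKM in WT and at 20.4 and 21.5 in the isolates (−0.035, adjusted p = 0.896; 0.011 with median ratio scaling). Of the 3 subunits of the G protein to which both receptors couple in *S. cerevisiae*, 2 passed and the third did not. Of all tested genes 40.1% passed in either direction, and *STE4* was named here only after its values were seen. The scaffold gene *STE5* rose by 0.77 and *CDC42*, a polarity GTPase gene, by 0.75. *STE50* (−0.62), an adaptor of the kinase cascade, and *STE7* (−0.53), a kinase of the cascade, were lower. The *STE7* call was lost on leaving out replicate 2 of isolate 1 (adjusted p = 0.0805) or of isolate 2 (0.0730). *FAR1* (0.43) and *SST2* (−0.31) had the highest and lowest changes among those that did not pass (*FAR1* turned to −0.24 under quantile normalization), and leaving out 1 library gave 4 to 5 higher and 1 to 3 lower.

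Of 15 genes of cell and nuclear fusion, 6 were higher and 1 lower (40% and 6.67%, beside 20.2% and 19.9% of all tested genes; median 0.12), and the difference from all genes was not tested. The count of lower genes depended on the setting, with 6 higher and 3 lower under quantile normalization and 6 and 5 with the 6 libraries entered singly. *PRM1*, which acts in plasma membrane fusion, rose by 2.31, *KAR4*, a regulator of karyogamy genes, by 1.71, *FUS1*, of cell fusion, by 1.17 and *KAR5*, of nuclear fusion, by 0.76. *FIG1* had the smallest rise that passed (0.55), and *KAR2*, the chaperone of the endoplasmic reticulum, fell by 1.17. *FIG4* (0.14, and −0.20 under quantile normalization) and *BNI1* (−0.67) did not pass in the main fit. *BNI1* passed as lower with no filter (limma adjusted p = 0.0348), under quantile normalization (0.0045) and without the variance trend (0.0222). It also passed with the 6 libraries entered singly (0.0014), and its change was −0.71 without WT replicate 1.

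Of 10 genes of pheromone processing, 3 were higher and 2 lower (30% and 20%, beside 20.2% and 19.9% of all tested genes). *AXL1* (1.21), a protease gene of a-factor maturation, *KEX1* (0.80), a carboxypeptidase gene, and *RCE1* (0.55), of prenyl protein processing, were higher. *STE23* (−1.75), the gene of a second a-factor protease, and *RAM1* (−0.73), of farnesylation, were lower. *STE24* (0.22) and *STE13* (−0.38) did not pass. After quantile normalization *AXL1* was at 0.53 and did not pass (adjusted p = 0.149). Among the regulators, *RME1* (0.93) and *SUM1* (0.54) were higher and *CYC8* (−0.71) lower of 5 tested, with *TUP1* (0.40) and *RFM1* (−0.17) not passing. These shares are 40% and 20%, beside the same 20.2% and 19.9% of all tested genes. Leaving out replicate 2 of isolate 1 or replicate 1 of isolate 2 ended the *SUM1* call (adjusted p = 0.0546 and 0.0673), and *TUP1* passed without isolate 1 replicate 1 (0.0305). The 2 other aspartyl protease genes matched beside *BAR1* were *PEP4* (0.65, higher) and *YPS7* (−0.44, not passing), both far more abundant than *BAR1* at 375 and 165 FPKM in WT. Without isolate 2 replicate 1, *YPS7* passed as lower (adjusted p = 0.0480).

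**Figure D4:**
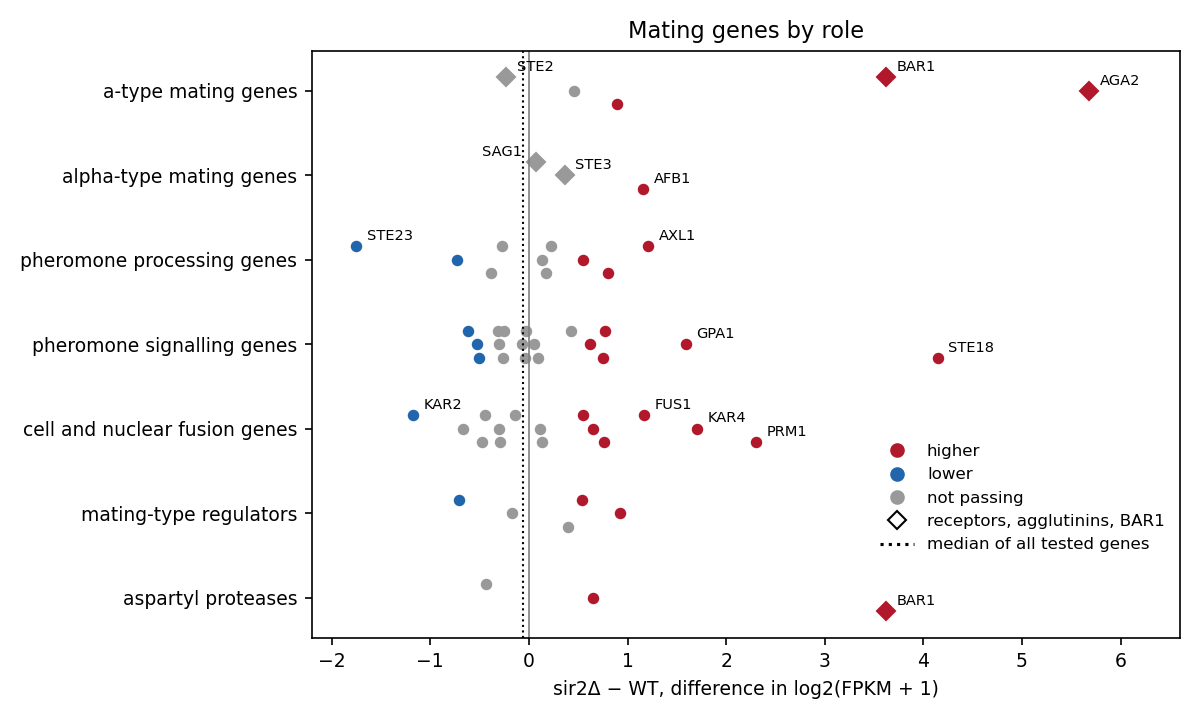
Change in sir2Δ against WT, in log2(FPKM + 1) from the 3 strain means, for the tested genes of the 7 lists, with red for higher, blue for lower and grey for not passing. *BAR1* stands in 2 lists, and the list of aspartyl proteases was not chosen for a role in mating. *AGA2* (5.68), *STE18* (4.15) and *BAR1* (3.62) lie apart from the other genes of the lists, and *STE2* (−0.23), *STE3* (0.36) and *SAG1* (0.07) did not pass. The dotted line is the median of all tested genes (−0.058).

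In the RefSeq order of protein-coding genes the member closest to a chromosome end is *STE2*, at position 129 from that end. The others lie at 168 to 477. Of the 20 protein-coding genes within 2 positions of the members, 6 were higher and 3 lower (45% called, against 40.1% of all tested genes). *AGA2* has *RPL30* and KLLA0E10869g on its left, at 5091 and 6598 FPKM in WT, which were at −0.42 and −0.37 and did not pass; *RPL30* passed without isolate 2 replicate 2 (adjusted p = 0.0424). On its other side *NAT2* (0.35) did not pass and KLLA0E10935g rose by 1.78. *BAR1* stands between *RIB5*, of riboflavin synthesis, which rose by 0.89, and *SNL1* (−0.22, not passing); the outer neighbours are *SQT1* (−0.18, not passing) and *VID28*, which rose by 0.83. The rises of *AGA2* and *BAR1* were thus much larger than those of any of their 4 annotated neighbours, a difference that was not tested.

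The neighbours of the receptor genes and *SAG1* included stronger changes than the genes themselves. *MUM3*, a sporulation gene in *S. cerevisiae*, lies 2 genes from *STE2* and rose by 3.47, while *TIM18* between them (0.17), *BST1* (−0.54) and *EPL1* (−0.44) did not pass. *BST1* passed as lower with no filter (limma adjusted p = 0.0481), under quantile normalization (0.0245) and without the variance trend (0.0365). *ASG7* lies 2 genes from *STE3*, with *TOH1* between them (−0.055, not passing), and on the other side *CPS1* rose by 0.48 and *RFA3* (−0.48) did not pass. Leaving out isolate 1 replicate 2 ended the *CPS1* call (adjusted p = 0.0616), and *RFA3* passed without WT replicate 1 (0.0405) or isolate 1 replicate 1 (0.0384). Beside *SAG1*, *HOL1* fell by 0.73, *SSL1* by 0.53 and KLLA0E09725g by 0.53, and KLLA0E09703g (0.11) did not pass. The call of KLLA0E09725g was likewise lost without isolate 1 replicate 2 (adjusted p = 0.0948).

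**Figure D5:**
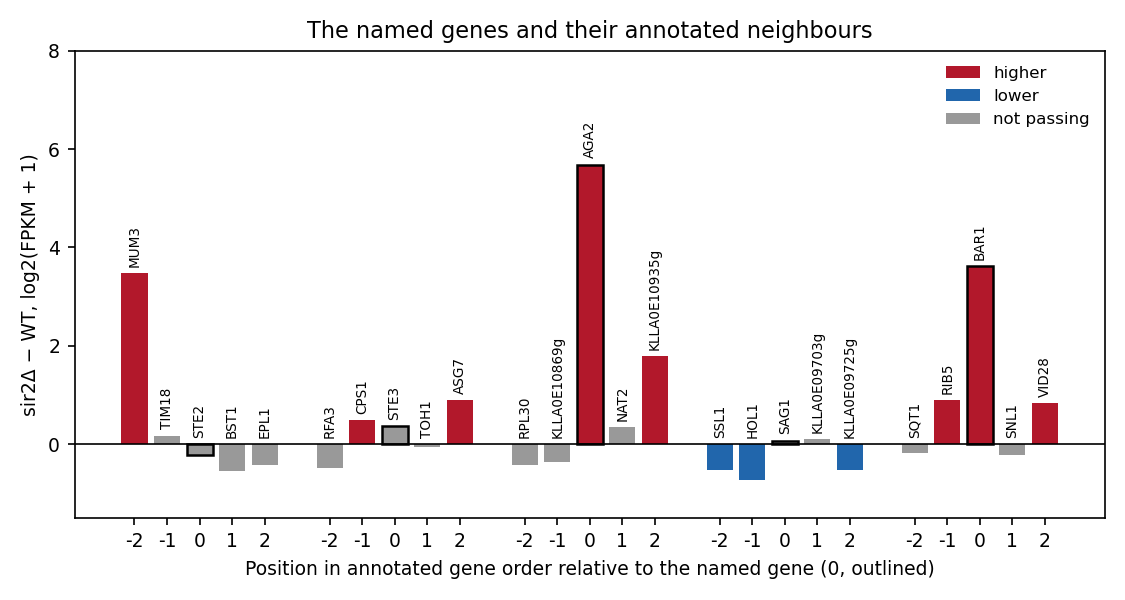
Change in sir2Δ against WT, in log2(FPKM + 1), for each of the 5 genes (position 0, outlined) and the 2 annotated protein-coding genes on either side. Red marks higher, blue lower and grey not passing. *AGA2* (5.68) and *BAR1* (3.62) exceed all of their neighbours, while *MUM3* (3.47), 2 genes from *STE2*, far exceeds *STE2* (−0.23).

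Few genes lay close to *AGA2* in the size and course of their log2(FPKM + 1) values over the libraries. Likeness was measured over the 6 libraries as the Euclidean distance between log2(FPKM + 1) values centred on each gene's own mean, against 5020 other tested genes. *MOH1* was closest to *AGA2* (distance 0.27), followed by KLLA0A00132g (0.39) and KLLA0E19295g (0.45), and only these 3 lay within 0.5, a limit chosen after the distances were seen. *BAR1* had 21 genes within 0.5, of which KLLA0B14916g (0.16), KLLA0F22319g (0.16) and KLLA0F25520g (0.25) were nearest. In contrast, 1207 genes lay within 0.5 of *STE3*, 1584 of *STE2* and 2099 of *SAG1*. The values were not scaled to a common spread, so these counts largely restate the size of each gene's change. The added 1 also shrinks the fold of genes near 0 in WT. KLLA0A00132g was at 0.194 FPKM in WT and at 47.6 and 58.4 in the isolates, beside 2.99, 183 and 218 for *AGA2*. It and KLLA0B14916g (0.677 FPKM in WT) were compared only because their sir2Δ values passed the filter. The nearest were *ACT1*, *TRP5* and *CYS3* for *STE3* (0.041 to 0.070), *RPS3*, *GRS1* and *TUB2* for *STE2* (0.081 to 0.10), and *PEX32*, KLLA0E05655g and *OSH6* for *SAG1* (0.062 to 0.078). These distances describe 3 strains, 1 of them WT, and carry no test.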

How the data were processed

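RNA was taken with hot phenol, treated with DNase and made into libraries with a kit that does not keep the strand, and 50 bp single-end reads were taken, per the labels' protocols. A gene and an antisense partner therefore cannot be told apart. The authors deposited 1 FPKM value per gene and library, made with TopHat2 2.0.10 and Cuffnorm 2.2.1, per the submitters' processing notes; the sources used here do not give the build, the annotation or the scaling option. Values are fractional estimates, so whole reads were not recovered, the depth is unknown and intervals for counting error could not be made; FPKM summed to between 1542502 and 1803539 per library.

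The scale of all tests was log2(FPKM + 1), on which the fold of a gene near 0 comes out too small. To compare sir2Δ with WT, libraries were averaged per strain and 1 WT mean was compared with 2 isolate means by limma 3.58.1 under R 4.3.3, with the variance trend, 1 residual and 7.03 prior degrees of freedom, over 5021 genes (strain means averaging 1 FPKM or more); all 5 genes described passed this filter. WT was assumed to vary like the isolates. Single strains were compared in a fit of the 6 libraries in 3 groups. P-values are two-sided with Benjamini-Hochberg adjustment over all tested genes. The procedure was tested on simulated data. Only genes with a WT level above those of *AGA2* (1.97 in log2(FPKM + 1)) and *BAR1* (0.51) were changed there. Rises from levels as low as these were thus not tested. No set test was made.

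Symbols, coding lengths and gene order came from the RefSeq table of ASM251v1, which matched all 5076 identifiers; no coordinates or sequences are given. *SIR2* has no symbol there and was taken as KLLA0F14663g. Of 86 list names 60 matched. Named from the lists were all called genes where 6 or fewer were called, otherwise the 4 highest and 2 lowest called, plus the highest and lowest not called; *STE4* was added after its values were seen. Also named were the 3 most similar genes and the 2 neighbours on either side of each gene. Members and lists were chosen with earlier results of these data known. After the values were seen, *AFB1* was moved from the a-type to the alpha-type list and *AXL1* to the processing list, since their roles in *S. cerevisiae* are those; as first written, 5 of 7 a-type genes, 0 of 2 alpha-type genes and 2 of 9 processing genes were higher.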

Additional observations from a re-analysis of the deposited data

Results flagged for a closer look

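Of the 58 tested list genes, 7 differed between the 2 sir2Δ isolates in limma on 6 libraries (12.1%, against 18.7% of all tested genes). None of the receptor, agglutinin or *BAR1* genes was among them. *AFB1* was higher in isolate 2 by 0.64 on the log2 scale (15.9 against 25.2 FPKM, adjusted p = 0.0026), *STE23* by 0.52 (94.2 against 135 FPKM), *YPS7* by 0.35, *FUS1* by 0.33 and *RCE1* by 0.30. *KAR1* (−0.35) and *CDC24* (−0.29) were lower in isolate 2. These tests rest on the spread between technical libraries of each isolate.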

How the results depend on the processing

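*AGA2* and *BAR1* were higher in sir2Δ, with an adjusted p under 0.05, in all 9 other settings and in all 6 fits that left out a library. Their log2 change ran from 4.97 to 6.07 and from 2.69 to 5.02 over the settings, and from 5.39 to 5.97 and from 3.46 to 3.78 without 1 library. With a filter of 10 FPKM both genes entered the test only through their sir2Δ values, since their WT means were 2.99 and 0.44 FPKM. *BAR1* did so in the main test too. Such entry favours genes that are high in sir2Δ, so those fits add no separate support. *STE2* stayed negative and did not pass in the same 15 fits. *STE3* did not pass except with each of the 6 libraries as a replicate of its genotype (0.36, adjusted p = 0.0228), with or without the replicate number as a block (adjusted p = 0.0363 with the block). *SAG1* turned to −0.012 under quantile normalization. Its difference turned under the same normalization for isolate 1 against WT (−0.11) and for isolate 2 against isolate 1 (0.19), and the latter ran from −0.059 to 0.054 without 1 library. The cause was not tested.

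The 2013 genes called in sir2Δ became 3217 with the libraries entered singly and 3118 with the replicate block added, settings that count technical libraries as replicates. Leaving out 1 library gave 1833 to 2074. Between isolates 937 genes were called, 1220 with the replicate block, and 232 to 918 without 1 library, lowest without isolate 2 replicate 2 (232), then isolate 1 replicate 1 (349) and isolate 2 replicate 1 (601). Same-numbered libraries deviated together at r = 0.0052, 0.055 and 0.21 across genes, so the numbers were not taken as pairs. With the block, *STE3* passed for isolate 2 against isolate 1 (0.28, adjusted p = 0.0235) and for isolate 1 against WT (0.22, adjusted p = 0.0353).

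WT is 1 strain, so strain and genotype cannot be told apart. The number of reads behind the WT values of *AGA2* and *BAR1* is unknown, and technical WT libraries differed by 1.71 and 2.18 times for these genes, which limits the fold against WT. *ASG7*, *AXL1* and KLLA0E10935g were not tested with a filter of 10 FPKM. With no filter, *AFB1*, *RCE1*, *STE7*, *STE50*, *FIG1*, *SUM1*, *SSL1* and KLLA0E09725g missed the threshold (adjusted p from 0.0525 to 0.101). In the other direction, *BNI1*, *BST1*, *RFA3* and *YPS7* passed as lower under quantile normalization, and *TUP1* and *NAT2* passed as higher. With the 6 libraries entered singly, *STE13*, *SST2*, *BST1*, *EPL1*, *RFA3*, *RPL30*, KLLA0E10869g, *SNL1* and *YPS7* also passed as lower. *FAR1*, *TUP1* and *NAT2* passed as higher in that setting, which treats technical libraries as replicates.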
